A study of Rattus norvegicus with 144 samples.

Results

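Of the 144 RNA-sequencing samples of the study, 24 came from HIV-1Tg rats and from the dorsal striatum (STR), and they were taken by the strain, region and drug in their labels. They were 12 rats given nicotine (HIV_Nic) and 12 given saline (HIV_Sal). The transgene of these rats is a non-infectious provirus whose own LTR promoter is active in many tissues, so that viral proteins are present although no infectious virus is made. Both groups carried this transgene, so that the comparison asks what nicotine did in a striatum already exposed to viral proteins. All rats were adult males that had been through an earlier behavioural experiment, and they received subcutaneous nicotine at 0.25 mg/ml or saline, each at 1 ml per kg of body weight, with 2 injections per day over 17 days. The STR of 12 F344_Sal and 12 F344_Nic rats, the background strain without the transgene on the same schedule, shared the estimate of the spread in the fit and was compared with the HIV-1Tg rats.

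The dorsal striatum is the input station of the basal ganglia, where cortical glutamate and midbrain dopamine meet on medium spiny neurons. Nicotine acts there through nicotinic acetylcholine receptors, many of them on dopamine terminals, and repeated injections are known to change dopamine release and locomotor activity. The tissue punches hold all cell types of the region, so that fewer cells of a type and less RNA per cell cannot be told apart. Whether the punches held striatal markers was not tested, since the tables carry Ensembl identifiers that no table used here pairs with gene names.

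Expression was given as FPKM, the fragments mapped to a transcript scaled by its length and by all mapped fragments of the library, for each transcript that Cufflinks assembled in each rat. A transcript that matches an annotated isoform exactly has the class code "=". A fragment of assembly that shares a splice junction with the annotated isoform but differs elsewhere has the code j, a single-exon piece that runs from an exon into an intron has the code e, and another overlap with exons has the code o. Reads at a gene are divided among these forms, so the FPKM of a single form depends on which others were assembled. The ratio of coverage to FPKM, a relative measure of depth, was 1.99 to 3.52 in the 24 rats, with medians of 2.33 in HIV_Sal and 2.36 in HIV_Nic rats. The most alike pair of the 24 libraries had a correlation of 0.791 across transcripts, and no library appeared to have been deposited a second time.

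A small set of mostly short, scarce transcripts was lower in the STR of HIV_Nic than of HIV_Sal rats. Of 14939 annotated transcripts tested with limma on log2(FPKM + 0.1), 37 passed a Benjamini-Hochberg adjusted p of 0.05, which is 0.248% of those tested. Of these, 35 fell (0.234%) and 2 rose (0.0134%). This split depended on the setting. The study's removal of near-zero values and outliers was done at assumed limits, 0.01 FPKM and 1.5 interquartile ranges within a group. With it, 264 passed by limma and 86 of them were higher. With that removal and the study's Tukey-Kramer test, 84 passed and 19 were higher. The falls ranged from 1.21-fold to 2.78-fold with a median of 1.92-fold, and 13 were at least 2-fold. On the log2 scale the median of the 35 was -0.94, against -0.024 for all transcripts tested. The last of the 37 had an adjusted p of 0.0484 and the next transcript had 0.0502, so the threshold did not fall in a gap. A fold change on this scale understates the change of transcripts near 0. The count was 60 and 56 when HIV_Sal rat 1 or rat 9 was dropped, and 20 to 24 when HIV_Sal rat 2, 3 or 4 was dropped. Fitted with the 24 HIV-1Tg rats alone, 10 transcripts passed, all of them lower.

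The transcripts that fell were mostly at low levels. Their mean FPKM in HIV_Sal rats was under 1 in 16, from 1 to 10 in 14, and 10 or more in 5, with a range of 0.113 to 182. The median over all 37 was 1.53 FPKM, against 3.76 over all transcripts tested. They were also short: the median length was 546 bases, 25 of the 37 were under 700 bases, and the median over all transcripts tested was 2010 bases. In 5 of the 37, at least 1 rat was listed at 0, in all 0 values in HIV_Sal and 9 values in HIV_Nic rats.

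The smallest p belonged to ENSRNOT00000020291 of the gene id ENSRNOG00000015106, a transcript of 1410 bases. Its FPKM in the 12 HIV_Sal rats ran from 0.954 to 2.69 with a median of 2.16, and in the 12 HIV_Nic rats from 0.765 to 1.30 with a median of 0.969. HIV_Sal rat 1 lay within the nicotine range, and the other 11 HIV_Sal rats lay above every HIV_Nic rat. The means were 2.10 ± 0.433 (SD, n = 12) and 1.00 ± 0.157, a log2 difference of -0.98 (SE 0.14, adjusted p = 0.000116 by limma). A permutation test of the same difference gave p = 1e-05, the smallest that 100000 resamples can give. The transcript was chosen for its small p in these same rats, and the permutation p is not adjusted for that choice, so it is no independent evidence. The call was lost among rats 1 to 6 alone (adjusted p = 0.0771 by limma), among rats 7 to 12 alone (0.17) and with the replicate number as a block (0.263), and over all alternatives the adjusted p ran from 1.36e-09 to 0.263. F344_Sal rats, at 1.39 ± 0.269, and F344_Nic rats, at 1.16 ± 0.283, lay between the means of the HIV-1Tg groups.

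The largest fall on the log2(FPKM + 0.1) scale was in ENSRNOT00000033610 of ENSRNOG00000025002, 608 bases long. It ran from 0.751 to 2.84 FPKM in HIV_Sal rats, with a median of 1.78, and from 0 to 1.08 in HIV_Nic rats, with a median of 0.572. HIV_Sal rats 2 to 8 were between 1.60 and 2.84, above every HIV_Nic rat, as was rat 11 at 1.14, whereas HIV_Sal rats 1, 9, 10 and 12 were between 0.751 and 0.972 and overlapped the nicotine group. HIV_Nic rat 2 was listed at 0. The log2 difference was -1.47 (SE 0.25, adjusted p = 0.00133 by limma), and it was -1.24 without that rat. With the 24 HIV-1Tg rats alone its adjusted p was 0.0933 by limma, and over all alternatives it ran from 0.000143 to 0.599. Its rank depended on the scale and on HIV_Nic rat 2. ENSRNOT00000036330, named after its values were seen, was next at -1.47, and by the ratio of mean FPKM scarcer transcripts such as ENSRNOT00000015702 (0.197 against 0.0289) differed more. The F344 groups again lay between, at 0.945 ± 0.229 with saline and 0.882 ± 0.251 with nicotine.

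The transcript with the higher rise, ENSRNOT00000008925 of ENSRNOG00000006829, is 436 bases long. HIV_Sal rats ran from 4.04 to 5.93 FPKM with a median of 4.69, and HIV_Nic rats from 3.99 to 9.43 with a median of 7.08. HIV_Nic rat 1 was the lowest of all 24 rats, and the other HIV_Nic rats, at 5.75 or more, overlapped only with the highest HIV_Sal rat. The means were 4.79 ± 0.633 and 7.02 ± 1.43 (SD, n = 12), a log2 difference of 0.52 (SE 0.11, adjusted p = 0.0173 by limma). With the 24 HIV-1Tg rats alone the adjusted p was 0.111 by limma, and over all alternatives it ran from 0.000254 to 0.751. The second rise was in ENSRNOT00000001794 of ENSRNOG00000001316, from 42.4 ± 10.1 to 57.9 ± 9.18 FPKM, with a log2 difference of 0.47 (SE 0.11, adjusted p = 0.0442 by limma). Its medians were 40.8 (28.6 to 67.6) in HIV_Sal and 54.4 (47.1 to 73.8) in HIV_Nic rats. This call was lost in 14 of the 24 fits that each left out 1 rat, with adjusted p up to 0.0947, and with the 24 HIV-1Tg rats alone (0.167). Over all alternatives its adjusted p ran from 0.000345 to 0.977 by limma.

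**Figure D1:**
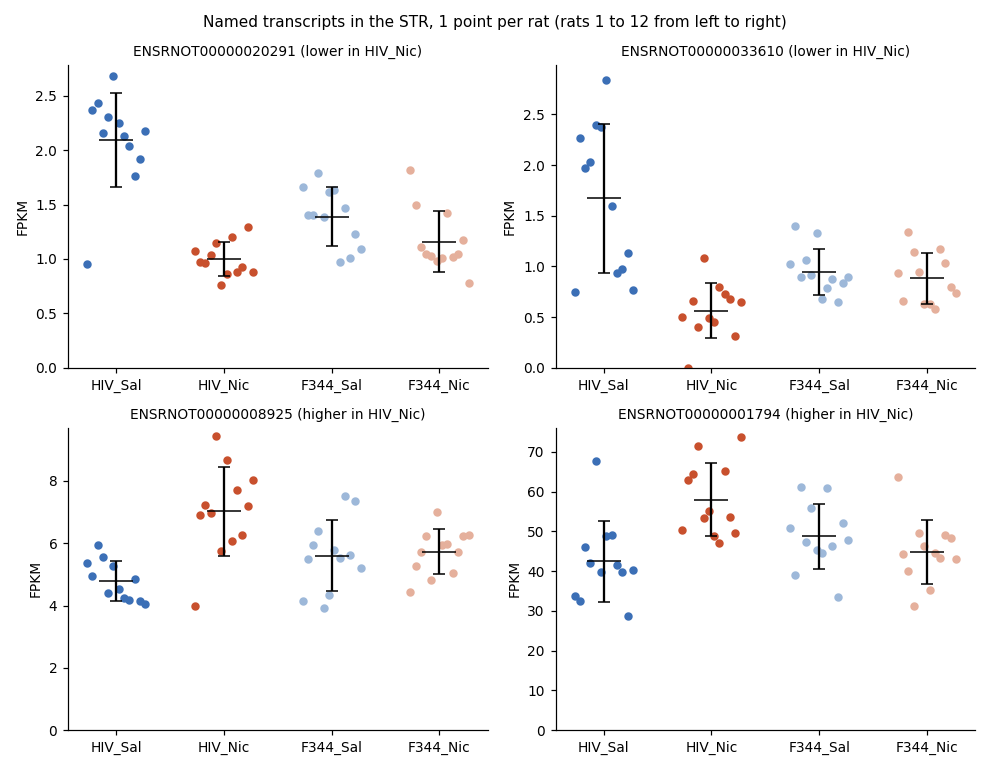
FPKM of the 4 transcripts named by rule in the STR, with 1 point for each rat, placed by rat number within its group, and the mean with SD as bars. In ENSRNOT00000020291 the 12 HIV_Nic rats lie between 0.765 and 1.30 FPKM, below 11 of the 12 HIV_Sal rats, and the F344 groups lie between the HIV-1Tg means.

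The 37 transcripts had no annotated sister isoforms. Each belonged to a gene id with a single annotated isoform in the table, as did 72.1% of the 14064 gene ids tested. Among the 10134 tested transcripts without an annotated sister, 8.25% had an unadjusted p under 0.05 and 37 passed adjustment. Among the 4805 with sisters, 5.22% had an unadjusted p under 0.05 and 0 passed adjustment, with a smallest adjusted p of 0.0714 by limma. Transcripts with sisters also varied more between rats, with a median coefficient of variation in HIV_Sal rats of 56.0% against 45.0%. It was 50.35% in the 2878 tested transcripts with no other annotated or assembled form at their gene id. Of these, 12.65% had an unadjusted p under 0.05 by limma and 34 passed adjustment. The part of this spread in the calls was not tested. When FPKM was summed over annotated isoforms, 44 of 14399 gene ids passed adjustment (0.306%), 41 lower (0.285%) and 3 higher (0.0208%), and they included the gene ids of all 37. With a single annotated isoform each, those 37 had the same FPKM as a sum and as a transcript, so their passing as sums is no further evidence. The count of 44 was 20 to 26 when HIV_Sal rat 2, 3, 4 or 6 was dropped. Summed over every class code, 69 gene ids passed and 14 of them were higher.

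Most of the 37 stood alone in the assembly as well. At 34 gene ids (91.9%) Cufflinks gave no other form in any HIV-1Tg rat, a state shared by 19.3% of all transcripts tested. The other 3 gene ids had further assembled forms, and at each of them the main class of these forms differed between groups in the direction opposite to the annotated transcript. These 3 were singled out after their values had been seen.

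The rise of ENSRNOT00000001794 was accompanied by less of the assembled isoforms at the same gene id. Their summed FPKM was 26.7 ± 12.7 (SD, n = 12) in HIV_Sal rats, all of which were at 13.2 or more, and 10.01 ± 9.80 in HIV_Nic rats, of which rats 2, 3, 4, 9 and 12 were at 0. These 5 rats held the highest values of the annotated transcript in the nicotine group, between 62.9 and 73.8 FPKM. The sum of annotated and j forms was 69.1 ± 9.93 in HIV_Sal and 67.9 ± 5.39 in HIV_Nic rats, and the log2 difference of this sum was -0.017 (SE 0.07, p = 0.826 by limma). The annotated and assembled forms thus differed between groups in opposite directions, and no difference in their sum was detected beyond its error.

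The most abundant transcript of the 37, ENSRNOT00000068149 of ENSRNOG00000043314, showed a like pattern in part. It is 252 bases long and had 182 ± 60.1 FPKM in HIV_Sal and 93.4 ± 26.3 in HIV_Nic rats, a log2 difference of -0.94 (SE 0.16, adjusted p = 0.00135 by limma). HIV_Sal rats 2 to 7 were between 227 and 260 FPKM, and the other HIV_Sal rats were between 118 and 133. Its class e pieces were at 0 in HIV_Sal rats 2 to 7 and between 21.0 and 30.2 FPKM in the other HIV_Sal rats. In HIV_Nic rats 1 to 5 and 9, where the annotated transcript was lowest (56.8 to 87.7 FPKM), the pieces were between 56.7 and 67.5. Summed over every form, the gene id had 195 ± 46.4 FPKM in HIV_Sal and 135 ± 7.03 in HIV_Nic rats. That sum was lower with nicotine, with a log2 difference of -0.50 (SE 0.10, adjusted p = 0.00773 by limma). It was 123 to 146 FPKM in HIV_Nic rats, 143 to 161 in HIV_Sal rats 1 and 8 to 12, and 227 to 260 in HIV_Sal rats 2 to 7. High levels of the annotated transcript were not particular to HIV_Sal rats. It ran from 112 to 238 FPKM in F344_Sal rats (179 ± 42.3) and from 105 to 193 in F344_Nic rats (144 ± 30.9). Between strains under saline its log2 difference was -0.0074 (p = 0.964 by limma).

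At ENSRNOG00000007987 the annotated transcript ENSRNOT00000010509 was at 17.0 to 24.3 FPKM in HIV_Sal rats and at 4.43 to 17.1 in HIV_Nic rats. A class o form was above 0 in 1 of 12 HIV_Sal rats, at 10.4, and in 8 of 12 HIV_Nic rats, at 8.59 to 14.2. Over every form the gene id had 20.4 ± 2.80 and 19.8 ± 4.30 FPKM, with a log2 difference of -0.058 (SE 0.09, p = 0.536 by limma). As a single transcript it had fallen, with a log2 difference of -0.78 (SE 0.17, adjusted p = 0.0291 by limma).

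**Figure D2:**
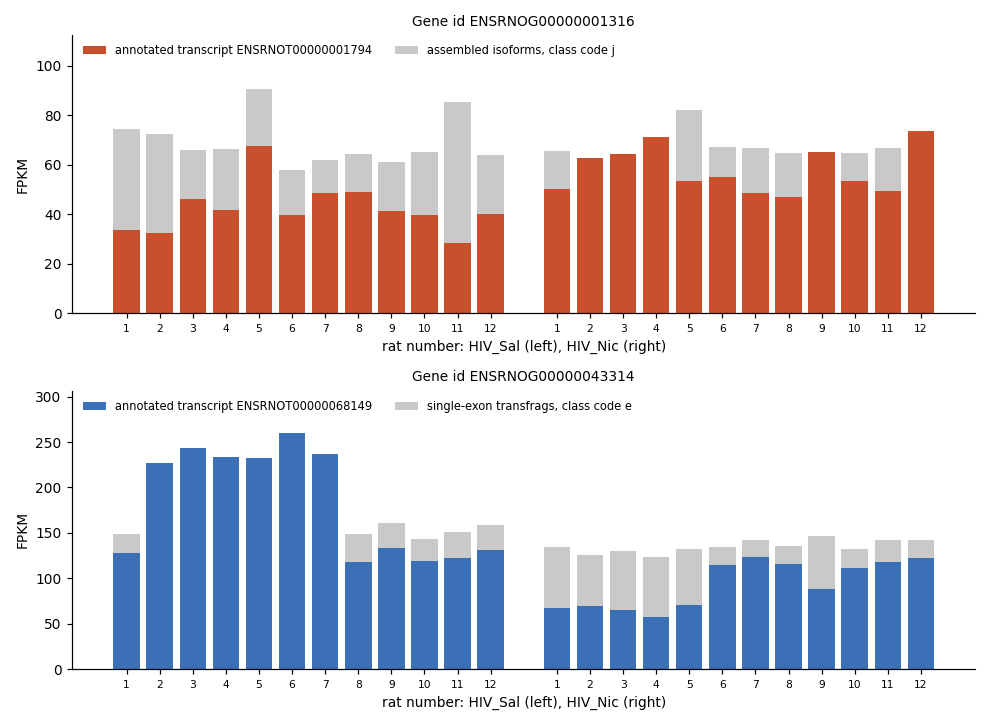
FPKM in each of the 24 HIV-1Tg rats at 2 gene ids, with the annotated transcript in colour and, stacked on it in grey, class j forms at ENSRNOG00000001316 and class e pieces at ENSRNOG00000043314. At ENSRNOG00000001316 the stacked height of annotated and j forms has means of 69.1 and 67.9 while the coloured part is higher with nicotine, and at ENSRNOG00000043314 HIV_Sal rats 2 to 7 stand above all other rats.

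The fall of the 35 transcripts was carried unevenly by the rats. Averaged over the 35, the log2 deviation from the mean of all 48 STR rats was 0.84 to 0.96 in HIV_Sal rats 2 to 7, 0.14 to 0.32 in rats 8 to 12, and -0.13 in rat 1. It was -0.59 to -0.47 in HIV_Nic rats 1 to 5 and -0.44 to -0.18 in rats 6 to 12. F344 rats, at -0.14 to 0.24 with saline and -0.29 to 0.19 with nicotine, overlapped both HIV-1Tg groups, but all 24 were below HIV_Sal rats 2 to 7 and above HIV_Nic rats 1 to 5. These sets of rats were picked after these same values had been seen, so the following counts only describe them. HIV_Sal rats 2 to 7 were the 6 highest saline rats in 17 of the 35 transcripts, and in 0.703% of the 14234 tested transcripts with no missing HIV_Sal value. HIV_Sal rat 1 was the lowest of its group in 21 of the 35, and in 14.1% of those tested. Coverage per FPKM was 1.99 to 2.37 in HIV_Sal rats 2 to 7, 2.31 to 2.66 in rats 8 to 12, and 2.15 to 3.52 in HIV_Nic rats, and its part in the result was not tested. The labels name no batch, litter or day for these rats.

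**Figure D3:**
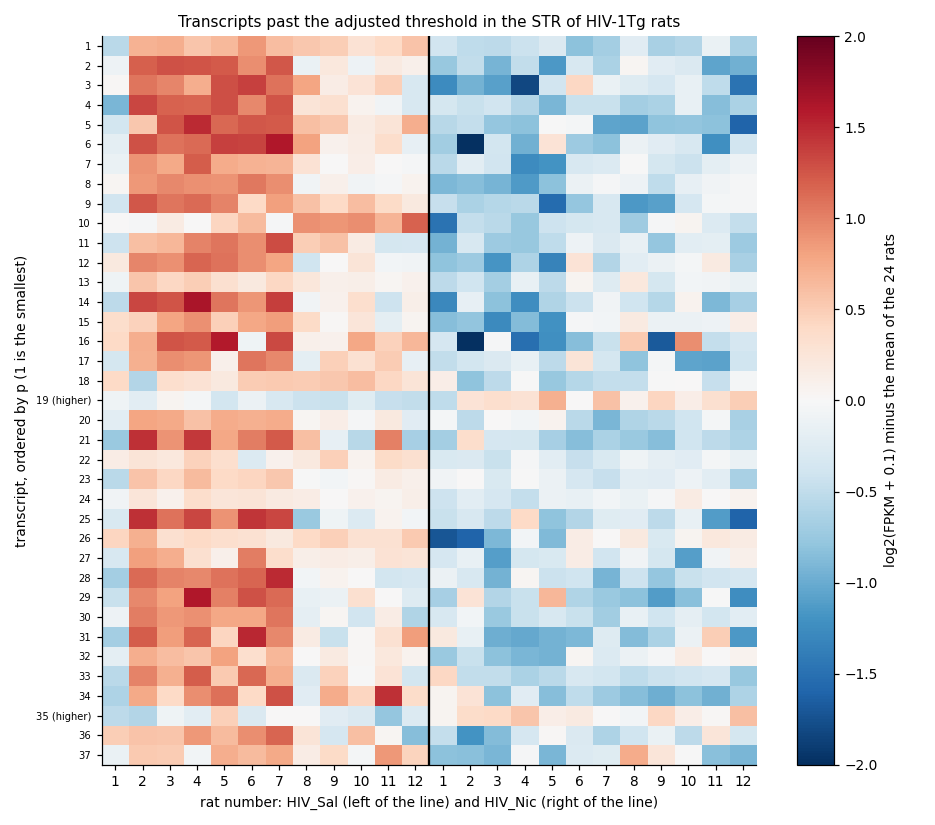
Each row is 1 of the 37 transcripts in order of p and each column a rat, and colour gives log2(FPKM + 0.1) minus the mean of the 24 rats. HIV_Sal rats 2 to 7 hold most of the strong red, and HIV_Sal rat 1 is pale or blue in most rows.

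The spread between rats of a group was smaller for the 37 than at the median of all transcripts, a difference that choice by p favours. The median coefficient of variation was 37.6% in HIV_Sal and 34.5% in HIV_Nic rats, against 48.7% and 47.1% over all transcripts tested. The confidence interval that Cufflinks gave for a single rat, a different measure from this spread, had a median half-width of 44.3% of the FPKM in HIV_Sal and 70.0% in HIV_Nic rats over the 37. Across the 144 pairs of an HIV_Sal and an HIV_Nic rat, the intervals were apart, with nicotine lower, in a median of 27.8% of pairs for the 35 transcripts that fell. For ENSRNOT00000020291 this was 117 of 144 pairs. No transcript of the 37 had groups that did not overlap, whereas 1 of 14939 did so with nicotine lower (0.00669%) and 0 with nicotine higher.

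The direction held in both sets of rat numbers, but the size did not. Among rats 1 to 6 of each group, 34 of the 35 transcripts that fell could be tested and all 34 were below 0, with a median log2 difference of -1.197, where 51.6% of all transcripts were below 0. Among rats 7 to 12 all 35 were below 0, with a median of -0.68, where 52.1% of all were below 0. Of the 37, 18 passed adjustment among rats 1 to 6 (0.319% of 15039 transcripts did) and 1 among rats 7 to 12 (0.0199% of 15068). The 18 were all among the 35 that fell, while the 1 was the rise of ENSRNOT00000008925, so 0 of the 35 passed among rats 7 to 12. The rats of each set were among those that chose the 37, so the direction in these sets is a description.

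In the other regions of HIV-1Tg rats, which the choice had not used, the direction did not recur across the 35. In the PFC of HIV-1Tg rats all 35 could be tested and 10 were below 0, with a median log2 difference of 0.14, and 49% of all transcripts there were below 0. In the HIP 18 of 35 were below 0, with a median of -0.0062, against 44.5% of all transcripts. By limma 0 of the 37 passed adjustment in either region, where 0 of 14715 and 0 of 14967 transcripts did, and before adjustment 0 and 3 of the 35 were under 0.05 (6.89% and 5.98% of all transcripts). Of those 3 in the HIP, 1 was lower and 2 were higher with nicotine. The labels do not say which samples of different regions came from the same rat.

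In the STR of F344 rats, 29 of 34 tested transcripts of the 35 were lower with nicotine, with a median log2 difference of -0.13, where 56.7% of all transcripts were lower. By limma 3 of the 36 that could be tested had an unadjusted p under 0.05 (4.53% of 14997 transcripts) and 0 passed adjustment (0.00667%). The strain-by-drug interaction, which asks if the nicotine difference itself differed between strains, had an unadjusted p under 0.05 in 31 of these 36 (4.96% of 14012 transcripts). Since the same HIV-1Tg rats chose the transcripts, that count is not independent of the choice. None passed adjustment, with a smallest adjusted p of 0.421 among them and 0.278 among all, so in this fit a difference between strains was not established for any single transcript. Among all transcripts, 2 passed without a filter and 18 with the study's removal of values. Between strains under saline, a contrast that shares the HIV_Sal rats with the nicotine contrast, the 35 had a median log2 difference of 0.57 (HIV_Sal higher), and 2 passed adjustment (0.0596% of 15090 transcripts).

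**Figure D4:**
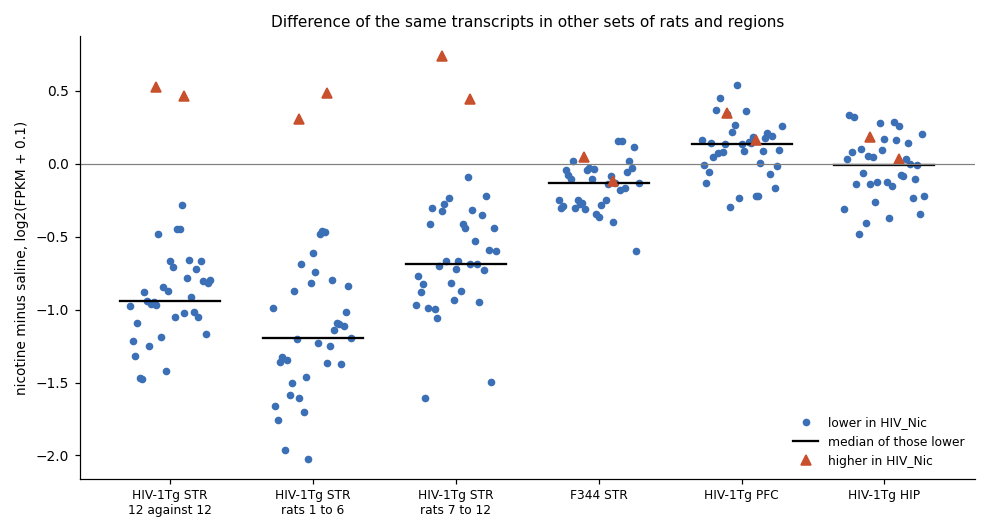
Nicotine minus saline on the log2(FPKM + 0.1) scale for the same 37 transcripts in 6 comparisons, with blue points for the 35 that fell, a bar at their median, and red triangles for the 2 that rose. Medians are -0.94, -1.197 and -0.68 in the HIV-1Tg STR and its 2 sets of rats, and -0.13, 0.14 and -0.0062 in the F344 STR, the PFC and the HIP.

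With no adjustment, 976 transcripts had p under 0.05 together with more than a 1.2-fold difference (6.53%), 624 of them lower (4.18%) and 352 higher (2.36%). This count was 1647 (627 higher) without a filter on low values and 1817 (729 higher) with the study's removal of values. Of the 8 genes that the study tabulates for its leading STR pathways, 3 could be tied to a transcript: Mdh1, the cytosolic malate dehydrogenase of the malate-aspartate shuttle, Ephb1, a receptor tyrosine kinase for ephrin-B ligands, and Rap1b, a small GTPase of the Ras family. The choice of these genes in the study rested on these very samples, which makes them no independent evidence, and 0 of the 3 passed adjustment here.

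Mdh1 (ENSRNOT00000011429) had separate high and low levels. It was between 203 and 332 FPKM in HIV_Sal rats 4, 7, 8, 9, 11 and 12 and between 28.8 and 50.9 in the other 6. In HIV_Nic rats it was between 360 and 439 in rats 4, 6 and 9 and between 33.9 and 42.5 in the other 9. High values above 100 FPKM, a limit set after the values were seen, were also present in 3 F344_Sal and 2 F344_Nic rats. The 3 high HIV_Nic rats were above every HIV_Sal rat, and the low levels of both groups overlapped. Of the 144 pairs of rats, the Cufflinks intervals were apart with nicotine lower in 70 and with nicotine higher in 52. The log2 difference was -0.59 (SE 0.57, p = 0.309, adjusted p = 0.902 by limma). Among rats 1 to 6 it was 0.61 (p = 0.446 by limma) and among rats 7 to 12 it was -1.78 (p = 0.0295, adjusted p = 0.838 by limma). The study describes dropping near-zero values and outliers. When this was done with a limit of 1.5 interquartile ranges within a group, an assumed setting, the 3 high HIV_Nic values (rats 4, 6 and 9) and 0 HIV_Sal values were taken out, and the log2 difference became -1.42 (adjusted p = 0.0306 by limma). Over all alternatives its adjusted p ran from 0.0306 to 1. With the study's two-way ANOVA and Tukey-Kramer test on the same values its p was 0.00318 and its adjusted p 0.206.

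Ephb1 has 2 annotated isoforms in the table. ENSRNOT00000010634 ran from 2.50 to 16.3 FPKM in HIV_Sal rats with a median of 9.43, and from 7.38 to 19.3 in HIV_Nic rats with a median of 13.7. HIV_Sal rats 1, 2, 3, 6, 10 and 12 lay below every HIV_Nic rat and the other 6 lay among them. The log2 difference was 0.68 (SE 0.29, p = 0.024, adjusted p = 0.577 by limma), and a permutation test gave p = 0.039. Its sister ENSRNOT00000010687 was listed at 0 in all but 3 of the 24 rats, and in those 3 the main isoform held only part of the sum. In HIV_Sal rat 10 the sister had 13.2 FPKM and ENSRNOT00000010634 held 15.93% of the sum, and in HIV_Nic rats 5 and 11 it held 67.7% and 42.5%. The sum of both isoforms gave a log2 difference of 0.62 (SE 0.26, p = 0.0219, adjusted p = 0.551 by limma). With assembled j forms added it was 0.71 (SE 0.26, p = 0.00813, adjusted p = 0.376 by limma), and the HIV_Nic rats then lay between 11.48 and 19.3 FPKM. In F344 rats the nicotine difference was -0.50 (p = 0.0925), and the interaction was 1.19 (SE 0.41, p = 0.00628, adjusted p = 0.889 by limma).

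Rap1b (ENSRNOT00000009511) had no value in HIV_Sal rats 5, 6 and 12 or in HIV_Nic rats 2, 3, 6 and 8, and the fit left those rats out. In the 9 HIV_Sal rats with a value it ran from 4.15 to 28.2 FPKM, with a median of 13.3, and in the 8 HIV_Nic rats from 2.57 to 32.2, with a median of 25.2. Each of the 7 rats without a value had assembled j forms at the gene id, between 5.06 and 8.85 FPKM in the saline rats and between 5.99 and 31.7 in the nicotine rats. The log2 difference of the annotated transcript was 0.49 (SE 0.36, p = 0.176 by limma), and that of annotated and j forms together was 0.44 (SE 0.30, p = 0.152 by limma). With missing values read as 0, as in the sum over annotated isoforms, the sign turned to -0.26 (SE 1.02, p = 0.797 by limma). The value also rested on single rats: the log2 difference of the annotated transcript was 0.90 without HIV_Nic rat 7 (p = 0.00253, adjusted p = 0.238 by limma) and 0.28 without HIV_Sal rat 7 (p = 0.418 by limma). The study's removal of values took out the same HIV_Nic rat and gave 0.90 (p = 0.00129, adjusted p = 0.0604 by limma). Over all alternatives the adjusted p ran from 0.0604 to 1.

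**Figure D5:**
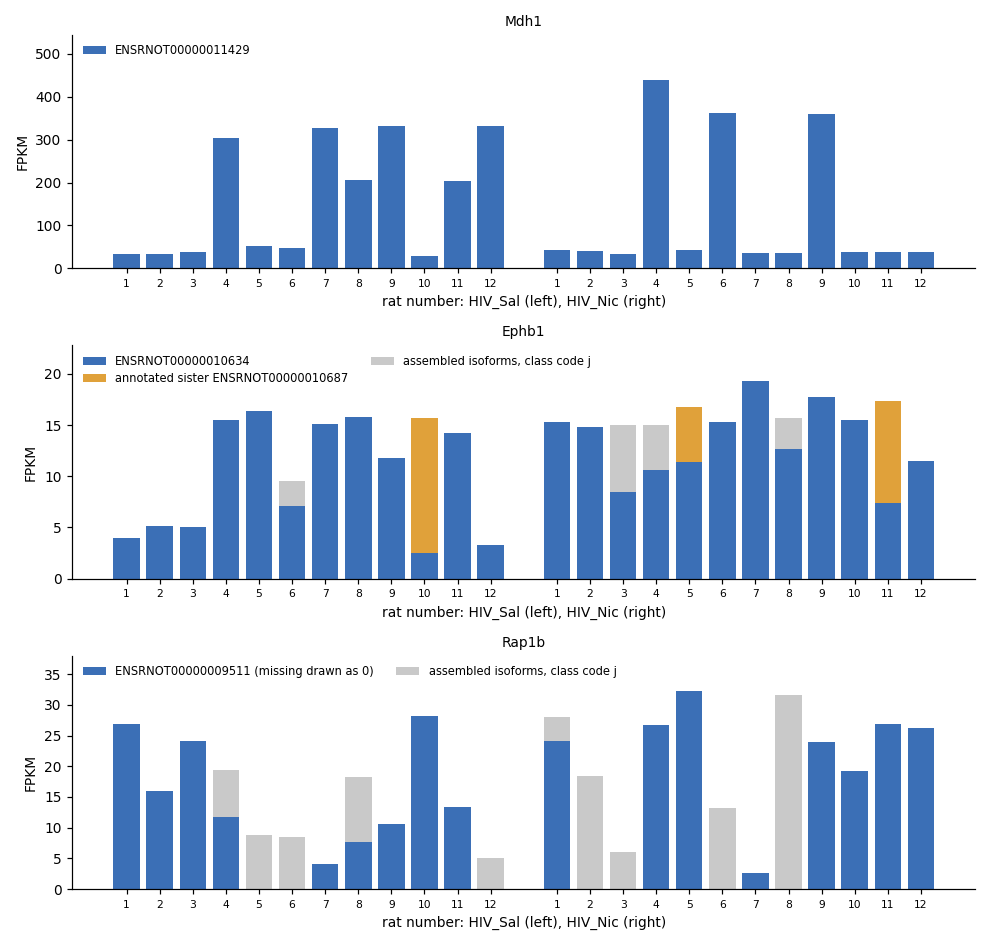
FPKM of Mdh1, Ephb1 and Rap1b in each HIV-1Tg rat of the STR, with annotated isoforms in colour and assembled j forms stacked in grey. Mdh1 is at 203 FPKM or more in 6 HIV_Sal and 3 HIV_Nic rats and at 50.9 or less in the others, and in Rap1b the rats without the annotated transcript carry grey bars.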

How the data were processed

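Total RNA of each punch was sequenced as 50 bp read pairs, each library in a single lane. The authors used Bowtie (1.04 in the submitters' processing notes) and TopHat for alignment to Rn4, a build of the rat genome, and deposited for each region and strain a Cufflinks table. Its cells pack other fields with FPKM, the interval of the estimate, coverage and length, all taken as deposited by the authors. The Cufflinks version is not given in the sources used here. Strand was not used. Because FPKM is already scaled, reads per library are unknown and no counting interval was computed here. All 144 sample columns were mapped by their names, and 0 were left unused.

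Rows of class code "=" (39078 in the STR) were tested with limma 3.58.1 in R 4.3.3 on log2(FPKM + 0.1), with the 4 STR groups in a fit with trended prior, and Benjamini-Hochberg adjustment over all transcripts that exceeded 0.01 FPKM in 6 or more of 12 rats in both groups. Several records in a cell were summed (0.324% of cells of the HIV-1Tg STR table), and missing values (2.73%) were left out. The study's methods name strain and sex as ANOVA factors, while the groups differ in strain and drug. Strain and drug were used. The fit was tested on simulated data. The members and lists were chosen with earlier results of these data known. Named by rule were, in each direction, the transcripts past adjustment with the smallest p and with the largest change, or the next largest where these were the same. Mdh1, Ephb1 and Rap1b were tied to transcripts by the 8 group means and errors that the study tabulates for them, each matched within 0.0051 by exactly 1 transcript after outlier removal, and the other 5 of its 8 tabulated genes were not. Marker and pathway lists could not be used without gene names. P-values measure the spread between rats labelled as separate samples.

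Same-numbered HIV_Sal and HIV_Nic rats did not deviate together (correlations -0.05 to 0.03), so the numbers were not taken to pair them. The alternatives were other pseudocounts, filters, scaling, sample weights, the study's removal of values at assumed limits, only the 24 rats, a replicate block, sums over isoforms, a permutation test, and leaving out each rat. Added after seeing the data were other readings of multiple records and missing values, rats 1 to 6 and 7 to 12 apart or as a factor, and sums that include class j or every class.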

Additional observations from a re-analysis of the deposited data

How the results depend on the processing

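The 37 transcripts past adjustment numbered 65 with a pseudocount of 1, 23 with 0.01, 17 with a mean FPKM of at least 1, 264 (86 higher) with the study's removal of values, 84 (19 higher) with that removal and the Tukey-Kramer test, 10 with only the 24 HIV-1Tg rats, and 3 among rats 7 to 12 alone. Of the 37, 36 were among the 264 and 9 among the 10. Leaving out 1 rat gave 20 to 60, with HIV_Sal rats 1, 9, 2, 3 and 4 left out in turn giving 60, 56, 21, 24 and 20. All 37 kept their direction in the 24 such fits and 19 stayed past adjustment in every fit. The 976 transcripts by the unadjusted threshold became 1647 (627 higher) without a filter and 1817 (729 higher) with the removal of values, and 869 to 1040 without 1 rat. The 44 gene ids became 23 with a pseudocount of 0.01, 10 with only the 24 rats, 69 (14 higher) with every class code, and 20 to 58 without 1 rat (23, 25, 20 and 26 without HIV_Sal rats 2, 3, 4 and 6). The interaction had 0 past adjustment, 2 without a filter and 18 with the removal of values. The cause was not tested for any of these.

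With the replicate number as a block within the 24 rats, 0 transcripts and 0 gene ids passed adjustment, 851 passed the unadjusted threshold, and 0 passed for the interaction. The numbers were not shown to pair the rats: 2 of 12 HIV_Nic rats correlated best with their own number. The block changed no direction of the named transcripts.

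For the 7 named transcripts, 244 of 280 alternatives kept direction and side of the threshold, 30 lost the call, 1 gained it (Mdh1 with the removal of values) and 5 reversed. These were ENSRNOT00000001794 with j forms (-0.017) and with every class (-0.077), Rap1b summed over isoforms (-0.26) and over every class (-0.24), and Mdh1 among rats 1 to 6 (0.61). The side was that of the adjusted p, except for the permutation test, which was judged by its unadjusted p. The 244 are no measure of stability. Sums over annotated isoforms could not change the transcripts named by rule, and Mdh1, Ephb1 and Rap1b mostly just stayed without a call. Reads per library are unknown and coverage per FPKM is only a relative measure of depth, so no limit of detection can be given for the 16 fallen transcripts under 1 FPKM.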
